A study of Mus musculus with 21 samples.

Results

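The genes described here encode the subunits of the oxidative phosphorylation complexes that are made from nuclear DNA. They were taken from the deposited expression table by gene symbol: the Nduf genes of complex I with an a, b, c, s or v and a number (and Ndufab1), Sdha to Sdhd of complex II, the Uqcr genes and Cyc1 of complex III, the Cox4 to Cox8 genes of complex IV, and the Atp5 genes of complex V. Ndufa4l2 and 4 symbols marked as pseudogenes were left out. This gave 85 of the 45706 genes in the table, of which 37 fell to complex I, 4 to complex II, 9 to complex III, 18 to complex IV and 17 to complex V. Ndufa4 is counted under complex I by its symbol, although its product is now known as a complex IV subunit, and Atp5s and Atp5sl carry an Atp5 symbol without being core parts of the ATP synthase. The study measured total RNA of CD31-positive cells, a sort for endothelial cells, from E0771.lmb tumours, a mouse mammary carcinoma line, grown in adult mice. Tumours of every group were grown after tamoxifen and taken on day 14 to 16 after injection of the tumour cells. The wild-type group (WT) had 11 samples from 9 tumours, and the knockout group (KO, iECKO in the labels) had 10 samples from 8 tumours, spread over 4 experiments. KO mice were Shb flox/flox and carried Cdh5-CreERt2, a Cre recombinase that tamoxifen activates and that the promoter of the endothelial cadherin gene drives, so that Shb, an adaptor of tyrosine kinase receptors, is deleted in endothelium. The labels give no strain, name CD45-positive cells in a magnetic step ahead of the CD31 sort, and mention a Vav1-cre line (ICKO) to which no sample is assigned. Tumours are fewer than samples, and no label ties samples of one tumour together. The p-values therefore measure a spread between samples that is in part within tumours.

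Oxidative phosphorylation passes electrons from NADH (complex I) and succinate (complex II) through ubiquinone to complex III, cytochrome c and complex IV, where oxygen is reduced. The proton gradient that complexes I, III and IV build drives ATP synthesis by complex V. Complex II is encoded by nuclear genes alone, whereas the other complexes join nuclear subunits to a few core subunits encoded by the mitochondrial genome. Endothelial cells are known for drawing much of their ATP from glycolysis, with mitochondria serving biosynthesis and signalling as well. Many promoters of nuclear-encoded subunits are known to hold sites for NRF1, for ETS factors such as GABPA, and for YY1.

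Of the 85 members, 70 had a promoter window (250 bases before to 50 after the annotated start) in RefSeq, build GRCm38.p6, which gave 76 windows. Searched on both strands, the NRF1 motif (as in the capitals of Cox6a1 below, with any base at its 6th position) was found in 23.7% of the members' windows and in 4.6% of all 32851 windows. The ETS motif CCGGAAG was found in 21.1% against 8.86%, and the YY1 motif AAGATGGCG in 11.8% against 1.4%. No motif of the 3 contains another, and 6 of the 76 windows held more than 1 of them. A match describes the letters of a window and does not show binding. Shown here are the stretches upstream of the start, without any annotated exon, of Uqcr11 and Ndufb6, the members among those with the smallest p-values below whose stretch held a match, and of Cox6a1, whose stretch held 2. Capitals mark the matches, which are ETS motifs in Uqcr11 and Ndufb6 and NRF1 motifs in Cox6a1. The stretches lie on the minus strand of GRCm38.p6 at chr10:80406831-80407071 (Uqcr11), chr4:40279422-40279671 (Ndufb6) and chr5:115348982-115349129 (Cox6a1).
Uqcr11: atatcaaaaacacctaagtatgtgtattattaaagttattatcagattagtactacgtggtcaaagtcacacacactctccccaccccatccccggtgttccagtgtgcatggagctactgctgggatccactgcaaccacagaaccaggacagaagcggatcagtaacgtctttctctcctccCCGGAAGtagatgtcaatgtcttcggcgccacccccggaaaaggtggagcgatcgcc
Ndufb6: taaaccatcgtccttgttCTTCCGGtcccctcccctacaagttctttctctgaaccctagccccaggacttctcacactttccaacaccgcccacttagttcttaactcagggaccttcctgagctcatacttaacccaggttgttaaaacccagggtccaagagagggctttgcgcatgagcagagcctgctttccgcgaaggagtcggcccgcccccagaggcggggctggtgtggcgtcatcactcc
Cox6a1: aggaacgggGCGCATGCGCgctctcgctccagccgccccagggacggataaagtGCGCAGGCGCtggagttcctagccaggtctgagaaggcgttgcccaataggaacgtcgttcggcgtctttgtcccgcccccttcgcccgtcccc

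Expression is given as TPM, in which a gene's reads are divided by its length and scaled to 1 fixed sum per library, so that levels of different genes can be compared within a library. TPM keeps no depth, so how many reads a value rests on is unknown. All 8 endothelial markers (Pecam1, Cdh5, Kdr, Tek, Tie1, Egfl7, Emcn and Erg) were above 0 in every library, with a summed level of 420 to 8344 TPM. The 3 libraries lowest in Pecam1 were WT replicate 2 (95.0 TPM) and KO replicate 2 (242 TPM) of experiment 4, then WT replicate 1 of experiment 2 (461 TPM). Shb, the deleted gene, had a mean of 37.3 ± 18.1 TPM over the 11 WT samples and of 22.8 ± 16.6 TPM over the 10 KO samples (both ± SD), a difference of -0.91 (SE 0.35) in log2(TPM + 1), with a p of 0.0223 in an exact two-sided permutation test within experiments. Leaving out experiment 2 brought this p to 0.227. By limma over all genes, the test used for the members below, the adjusted p of Shb was 0.820. Of the 10 libraries labelled KO, 4 held more Shb than the WT median of 31.8 TPM: KO 1 (36.3 TPM) and KO 2 (52.7 TPM) of experiment 1, KO 2 of experiment 2 (34.9 TPM) and KO 2 of experiment 3 (40.4 TPM), the last above both WT libraries of its experiment. The other 6 stood at 6.00 to 14.3 TPM. The labels do not say which exon is flanked, and the table gives 1 value for the whole gene, so WT and KO stand throughout for the libraries labelled so, and so does every direction given between them. Columns for 2 libraries share the header of KO replicate 3 of experiment 2 and are called KO replicates 3a and 3b. The labels list a KO replicate 3 of experiment 4 that no header names, and the column of 3b is written to 6 decimals, as are the 5 columns of experiment 4, whereas the columns of the other experiments, 3a included, have 2. Both were kept in experiment 2 as the header states, and where 3b belongs could not be settled, so that values of experiments 2 and 4 that rest on it carry this doubt. They had the highest shares of tested genes listed at 0 (16.5% in 3a and 15.2% in 3b), followed by KO replicate 2 of experiment 4 (14.8%) and WT replicate 2 of experiment 1 (13.5%).

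As a sum, the members were expressed in every library, although single members were listed at 0 in some. Their summed level set experiment 2 apart. Together they took 0.180% to 0.341% of the TPM in the 7 libraries of experiment 2. In experiment 1 they took 0.585% to 0.967% (5 libraries), in experiment 3 0.673% to 0.993% (4 libraries), and in experiment 4 0.306% to 0.911% (5 libraries). KO replicate 2 of experiment 4, at 0.306%, was the library outside experiment 2 that fell within the range of experiment 2, and the next lowest stood at 0.562%. This KO replicate 2 held 71.1% of its TPM in its 20 highest genes. Relative to the median of all genes in the same library, its members' median was 2.02 in log2(TPM + 1), beside -0.28 to 0.76 in experiment 2. Within experiment 2 the lowest shares were those of KO replicate 3a at 0.180% and KO replicate 3b at 0.254%, and the other 5 libraries ran from 0.262% to 0.341%. By genotype the share ran from 0.262% to 0.993% in WT (median 0.585%) and from 0.180% to 0.911% in KO (median 0.467%), so the genotypes overlapped over most of their range.

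**Figure D1:**
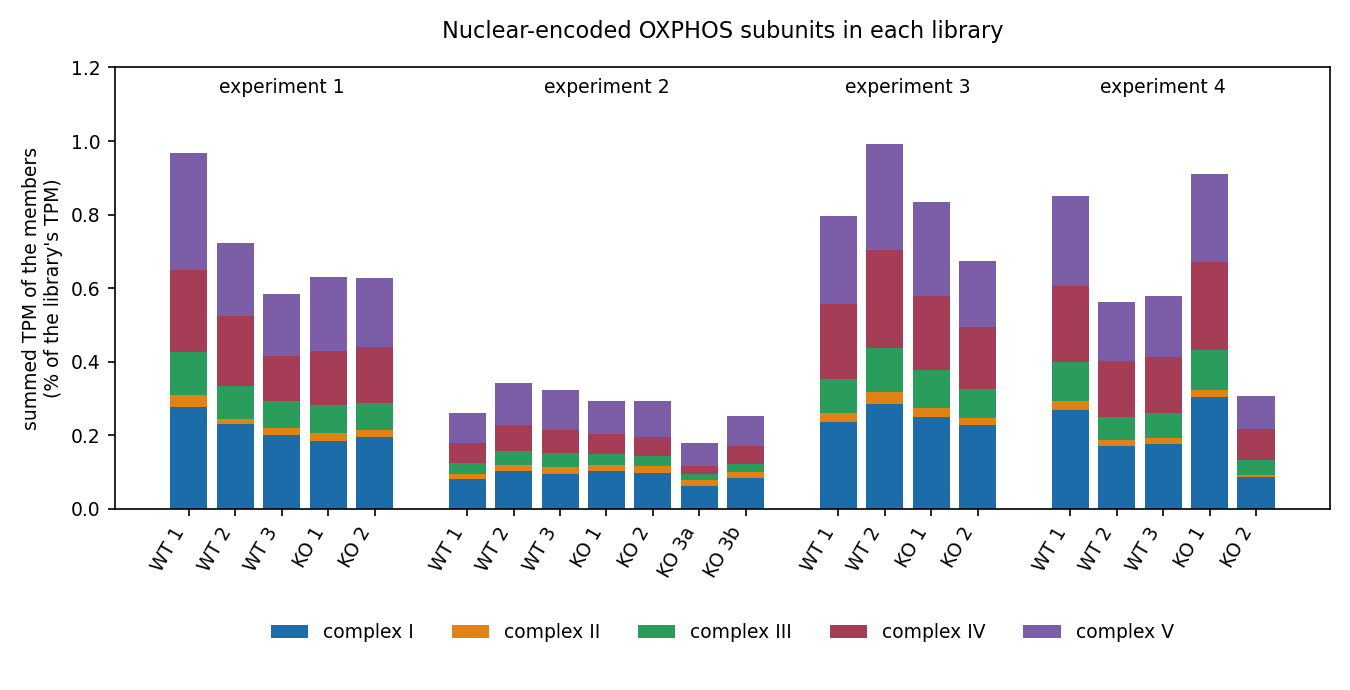
Summed TPM of the 85 members in each of the 21 libraries, as a percentage of the library's TPM, stacked by complex. The 7 libraries of experiment 2 sit between 0.180% and 0.341%, and 13 of the other 14 between 0.562% and 0.993%.

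Levels differed widely between members of the same complex. In complex V, Atp5b, the catalytic beta subunit, had the highest median of any member named here, at 340 TPM (179 to 745 TPM over 21 libraries). Atp5a1, the alpha subunit, had a median of 142 TPM (46.8 to 300 TPM), and Atp5g2, a gene for the membrane ring subunit c, a median of 135 TPM (43.2 to 299 TPM). Atp5s, known as coupling factor B, stood at the low end with a median of 2.80 TPM and was listed at 0 in 3 libraries.

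In complex IV, Cox6b1, an accessory subunit on the intermembrane side, had a median of 281 TPM (16.2 to 556 TPM). Cox4i1, the common isoform of subunit IV, had a median of 188 TPM (21.6 to 308 TPM) and Cox8a one of 177 TPM (10.8 to 273 TPM). In each of the 3 the lowest library was KO replicate 3a of experiment 2. Complex III had its highest mean in Uqcrb, which contributes to ubiquinone binding, with a median of 124 TPM (36.4 to 350 TPM). Uqcr11, a small accessory subunit, had a median of 125 TPM and was listed at 0 in 2 libraries, and Uqcrh, the hinge protein, had a median of 77.1 TPM (13.1 to 151 TPM). Uqcrfs1, the Rieske iron-sulfur protein at the catalytic centre of complex III, had the lowest mean of its complex, with a median of 33.0 TPM (6.57 to 80.0 TPM).

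In complex I, Ndufa3 and Ndufa12, accessory subunits, had medians of 121 TPM (0 to 370 TPM) and 99.0 TPM (28.4 to 256 TPM). Ndufa11 was the lowest member of complex I at a median of 5.71 TPM (2.87 to 13.1 TPM). The 4 subunits of complex II had medians of 96.2 TPM for Sdha, the flavoprotein that oxidises succinate (19.2 to 154 TPM), 37.6 TPM for Sdhc, 32.3 TPM for Sdhb and 26.8 TPM for Sdhd. Sdhc and Sdhd are the membrane anchors and Sdhb the iron-sulfur subunit.

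A filter of at least 1 TPM in at least 10 libraries was passed by 78 members and by 13503 genes in all. The 7 members that failed it all belong to complex IV and are isoforms known from other tissues. Cox7a1, Cox6a2 and Cox8b are the isoforms of heart and skeletal muscle, Cox6b2, Cox7b2 and Cox8c are known from testis, and Cox4i2 is the isoform of lung that is also known to respond to low oxygen. Cox8c was listed at 0 in all 21 libraries, and Cox8b, Cox6a2 and Cox7b2 were each above 0 in 1 library, at 1.18, 0.83 and 0.504 TPM. Cox7a1 was listed at 0 in 17 libraries and reached 2.90 TPM, and Cox6b2 was listed at 0 in 8 and reached 10.3 TPM. Cox4i2 was listed at 0 in 11 libraries and reached 11.0 TPM. In experiment 2 it was listed at 0 in all 7 libraries, and in KO it was listed at 0 in 8 of 10 libraries against 3 of 11 in WT. Having failed the filter, these 7 members were not tested.

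Between genotypes no member differed past the threshold. KO was compared with WT by limma on log2(TPM + 1) with a term for experiment and Benjamini-Hochberg adjustment over all genes tested, and called at an adjusted p under 0.05. Of the 78 members tested 0 were called, against 0.00741% of all genes, which is 1 gene, and the lowest adjusted p of a member was 0.820. At an unadjusted p under 0.05, 14 members were lower in KO (17.9%, against 4.93% of all genes) and 0 were higher (against 0.948%). Values of KO and WT overlapped for every member tested, as they did for every gene tested (0% not overlapping). The difference was below 0 for 70 of the 78 members (89.7%, against 64% of all genes). With all libraries set to a common median, 65 members and 50.8% of all genes were below 0. The median difference of the members was -0.40 in log2(TPM + 1), beside -0.11 over all genes, so that relative to all genes it was -0.28. Other coding genes with short transcripts were also mostly below 0. Under 700 nt, 81.8% of them (median -0.35) and 88.9% of members (-0.44) were below 0. For 700 to under 1200 nt these were 78.1% (-0.31) and 91.7% (-0.39). At 1200 nt or over they were 65.2% (-0.11) and 88.9% (-0.30). In a bulk sample, fewer cells of a type and less RNA per cell cannot be told apart.

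The count of 14 depends on single libraries. Leaving out WT 1 or KO 2 of experiment 1 brought the count to 8. In experiment 2 it became 8 when WT 1 was left out, 7 for WT 2, 6 for WT 3, 9 for KO 3a and 8 for KO 3b. In experiment 3 it became 8 for WT 2 and 9 for KO 2, and in experiment 4 it became 7 for WT 1 and 6 for KO 2, while leaving out KO 1 raised it to 21. Leaving out the 3 libraries lowest in Pecam1 gave 2, leaving out 3a and 3b gave 6, and leaving out all 5 gave 3. The number of members below 0 was 64, 67 and 55 in these 3 fits, beside 54.8%, 52% and 37.9% of all genes. The median relative to all genes was -0.24, -0.21 and -0.19. With 3b counted in experiment 4, the count was 15, 72 members and 55.5% of all genes were below 0, and the relative median was -0.43. That median was -0.46 without a term for experiment and -0.18 without experiment 2, the lowest and the highest over the alternatives.

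**Figure D2:**
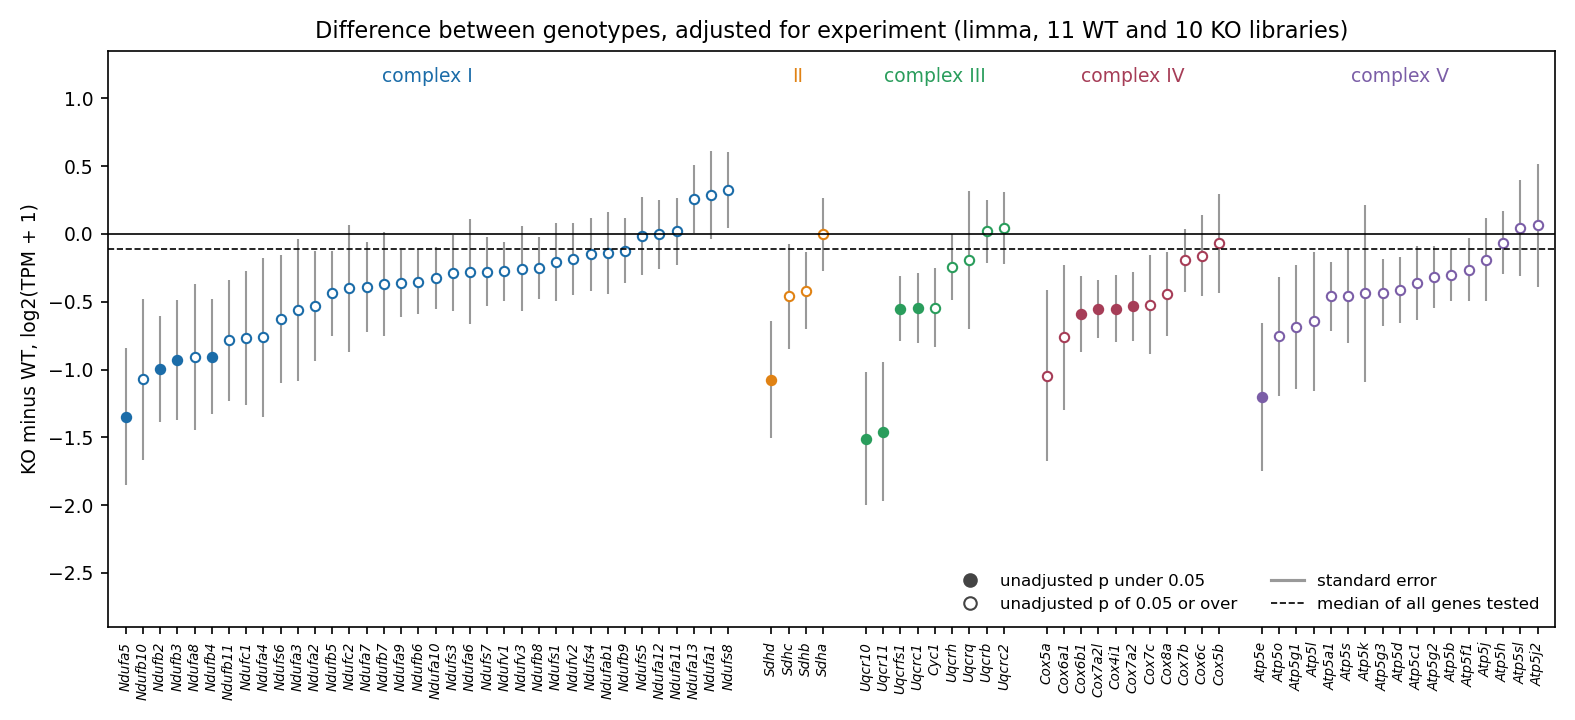
KO minus WT in log2(TPM + 1), adjusted for experiment, for 77 of the 78 members tested, ordered within each complex. Bars are standard errors from limma over 11 WT and 10 KO libraries, filled points have an unadjusted p under 0.05, and the dashed line is the median of all genes tested at -0.11. Most points lie below the dashed line, and none passes the adjusted threshold.

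Summed markers of leukocytes, fibroblasts, pericytes and smooth muscle, tumour epithelium and skeletal muscle were also lower in KO by their fitted values. Those of endothelial cells, erythroid cells and adipocytes were higher. Summed leukocyte markers stood at 58.6 to 4509 TPM in WT (median 209) and 39.3 to 250 TPM in KO (median 60.4). All 10 listed leukocyte markers were below 0 in the fit, up to 4 of them were listed at 0 in a WT library and up to 6 in a KO library, and the summed level differed by -1.53 (SE 0.58) in log2. For fibroblast markers the sum differed by -1.40 (SE 0.64), with 5 of 5 tested below 0 (up to 3 of 8 markers listed at 0 in a WT library and up to 5 in a KO library). For pericytes and smooth muscle the values were -1.12 (SE 0.37) and 5 of 5. Endothelial markers differed by 0.31 (SE 0.42), with 0 of 8 below 0. Summed markers of tumour epithelium reached 272 TPM in WT and 143 TPM in KO and differed by -1.30 (SE 1.05), with 1 of 1 tested below 0. Those of skeletal muscle reached 49.4 and 11.7 TPM and differed by -0.68 (SE 0.56), with 1 of 1 tested below 0. Erythroid markers had a median sum of 11.5 TPM in WT and 91.7 TPM in KO, a difference of 2.17 (SE 1.21) with 0 of 2 tested below 0, and adipocyte markers differed by 0.14 (SE 0.45) with 0 of 1 below 0. The part of these cells in the members' difference was not tested.

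The members with the smallest p-values were accessory subunits of complexes III, I and IV. Uqcr10 (chr11:4701973-4704342, minus strand, GRCm38), a small accessory subunit of complex III, ran from 26.9 to 191 TPM in WT (median 78.6) and from 0 to 132 TPM in KO (median 44.1). Its 2 zeros were KO replicates 3a and 3b of experiment 2, and another KO library of experiment 2 stood at 0.85 TPM. The difference was -1.51 (SE 0.49, unadjusted p = 0.00519, adjusted p = 0.820). By experiment it was -0.61, -3.72, -0.57 and -0.04 in experiments 1 to 4, and without experiment 2 it was -0.40.

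Uqcr11 (chr10:80402997-80406830, minus strand) was also lowest in KO of experiment 2, with 24.6 to 202 TPM in WT (median 144) and 0 to 201 TPM in KO (median 66.8). The difference was -1.46 (SE 0.51), and by experiment it was -0.05, -3.43, -0.26 and -1.05. It was -0.46 without experiment 2. Ndufa5 (chr6:24518666-24528013, minus strand), an accessory subunit of the matrix arm of complex I, ran from 8.03 to 68.4 TPM in WT (median 27.8) and from 0 to 54.5 TPM in KO (median 10.1), with a difference of -1.35 (SE 0.51). It was below 0 in each experiment (-2.49, -1.04, -0.72 and -1.16) and was -0.87 without KO replicate 2 of experiment 1, in which Ndufa5 is listed at 0.

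Cox7a2l (chr17:83501918-83517330, minus strand), which takes part in joining complexes III and IV into supercomplexes, differed less but more evenly. It ran from 40.7 to 175 TPM in WT (median 102) and from 15.7 to 139 TPM in KO (median 58.8), with a difference of -0.56 (SE 0.21). By experiment this was -0.32, -0.79, -0.61 and -0.41. Ndufb2 (chr6:39592574-39603382, plus strand), an accessory subunit of complex I, ran from 10.2 to 103 TPM in WT (median 32.2) and from 0.245 to 59.3 TPM in KO (median 19.9), with a difference of -0.99 (SE 0.39) that was -0.57 without KO replicate 1 of experiment 4, its lowest library. The adjusted p was 0.820 for each of these 5 members. The others at an unadjusted p under 0.05 were Ndufb3 and Ndufb4 of complex I, Sdhd of complex II, Uqcrfs1 and Uqcrc1 of complex III, Cox4i1, Cox6b1 and Cox7a2 of complex IV, and Atp5e, the epsilon subunit, of complex V.

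Of the 8 members above 0, those with the smallest p had differences close to their errors or smaller. Ndufs8, a core iron-sulfur subunit of complex I, ran from 4.14 to 39.1 TPM in WT (median 20.2) and from 8.31 to 43.1 TPM in KO (median 16.1), with a difference of 0.32 (SE 0.28). Ndufa13 differed by 0.26 (SE 0.25) and Ndufa1 by 0.29 (SE 0.32). Leaving out 1 library brought Ndufs8 to 0.19 (WT 3 of experiment 1) or 0.51 (KO 2 of experiment 4), Ndufa13 to 0.12 (KO 1 of experiment 4), and Ndufa1 to 0.093 (KO 3b of experiment 2) or 0.48 (KO 2 of experiment 4). Uqcrc2, a core protein of complex III, and Atp5j2, the f subunit of complex V, differed by 0.04 (SE 0.26) and 0.06 (SE 0.45), and the sign of both turned in several alternative fits. None of these passed the test, and the adjusted p was 0.898 or higher.

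The direction was alike across complexes, and the sizes overlapped. The median difference was -0.33 in complex I (33 of 37 below 0), -0.44 in complex II (4 of 4), -0.54 in complex III (7 of 9), -0.53 in complex IV (11 of 11 tested) and -0.41 in complex V (15 of 17). Read by experiment, 51 of 78 members were below 0 in experiment 1 (27.5% of all genes), 63 in experiment 2 (64.6%), 63 in experiment 3 (43.7%) and 66 in experiment 4 (82.6%). The median difference of the members was -0.20, -0.53, -0.25 and -0.32 in experiments 1 to 4. Beside these, the medians over all genes were 0.30, -0.18, 0.08 and -0.56. In experiment 4, therefore, the members' median lay above that of all genes, and in the other 3 below it. Experiment 4 had 2 KO libraries, and the median level of all genes was 2.95 in log2(TPM + 1) in its KO replicate 2. That level was 3.85 in KO replicate 1 and 3.81 to 4.06 in WT of experiment 4. With KO replicate 2 left out of the fit over all experiments, 60 members and 48.2% of all genes were below 0, and the median of all genes was 0.016. The test of whether the genotype difference itself varied between experiments (an interaction term in limma) called 0 members and 0% of all genes. At an unadjusted p under 0.05 it gave 3 members (3.85%, against 3.84% of all genes), which were Uqcr10, Sdha and Uqcr11.

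Between experiments the members differed far more than between genotypes. By limma's F test over experiments, with genotype in the model and Benjamini-Hochberg adjustment over all genes, 56 of 78 members were called (71.8%, against 29.1% of all genes). Experiment 2 held the lowest mean for 68 of the 78 (87.2%, against 19.3%), and 55 met both conditions (70.5%, against 5.98%). Every tested member of complex IV was called (11 of 11), followed by 14 of 17 in complex V, 6 of 9 in complex III, 24 of 37 in complex I and 1 of 4 in complex II. Fitted without experiment 2, the same test called 1 member, Cox6c, and 0.0592% of all genes. Leaving out 3a and 3b, it called 52, and experiment 2 was lowest for 64. With 3b counted in experiment 4 it called 43, and experiment 2 was lowest for 61.

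The 5 members with the smallest p between experiments were Cox6c, Uqcrb, Ndufb6, Cox4i1 and Cox6b1. Cox4i1 (chr8:120668222-120674207, plus strand) stood at 66.9, 87.3 and 75.8 TPM in WT and at 83.4, 55.6, 21.6 and 21.95 TPM in KO of experiment 2. In experiment 1 it ran from 188 to 268 TPM, in experiment 3 from 179 to 308 TPM and in experiment 4 from 94.9 to 275 TPM (adjusted p = 0.000369). Every library of experiment 2 was below every other library. The same held for Cox6b1, with 16.2 to 119 TPM in experiment 2 (median 88.0) and 139 to 556 TPM elsewhere (median 350; adjusted p = 0.000524).

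Uqcrb ran from 36.4 to 74.2 TPM in experiment 2, from 77.4 to 239 TPM in experiment 1, from 263 to 350 TPM in experiment 3 and from 124 to 345 TPM in experiment 4 (adjusted p = 0.000290). Ndufb6, an accessory subunit of the membrane arm of complex I, ran from 3.60 to 13.0 TPM in experiment 2 and from 14.0 to 51.9 TPM in the other experiments (adjusted p = 0.000369). Both also had no overlap between experiment 2 and the rest. In all, 11 members had every library of experiment 2 below every other library (14.1%, against 0.726% of all genes), the others being Atp5l, Cox7a2, Ndufb4, Ndufb7, Ndufb8, Uqcr10 and Uqcrh.

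Cox6c (chr15:35925886-35938246, minus strand), an accessory subunit of complex IV, split the experiments in another way. It stood at 79.0, 31.7 and 23.6 TPM in WT and 42.7 and 12.3 TPM in KO of experiment 1, and at 14.9 to 86.5 TPM in the 7 libraries of experiment 2. In experiment 3 it stood at 269 and 356 TPM in WT and 236 and 227 TPM in KO, and in experiment 4 at 149 to 350 TPM. Libraries of experiments 1 and 2 overlapped each other and lay below every library of experiments 3 and 4 (adjusted p = 1.3e-05 over all experiments, and 0.00427 without experiment 2). The highest library of experiment 2 was 3b, at 86.5 TPM, and the other 6 stood at 26.4 TPM or below. Cox6c was the member with the smallest p, and its difference between genotypes was -0.16 (SE 0.30).

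**Figure D3:**
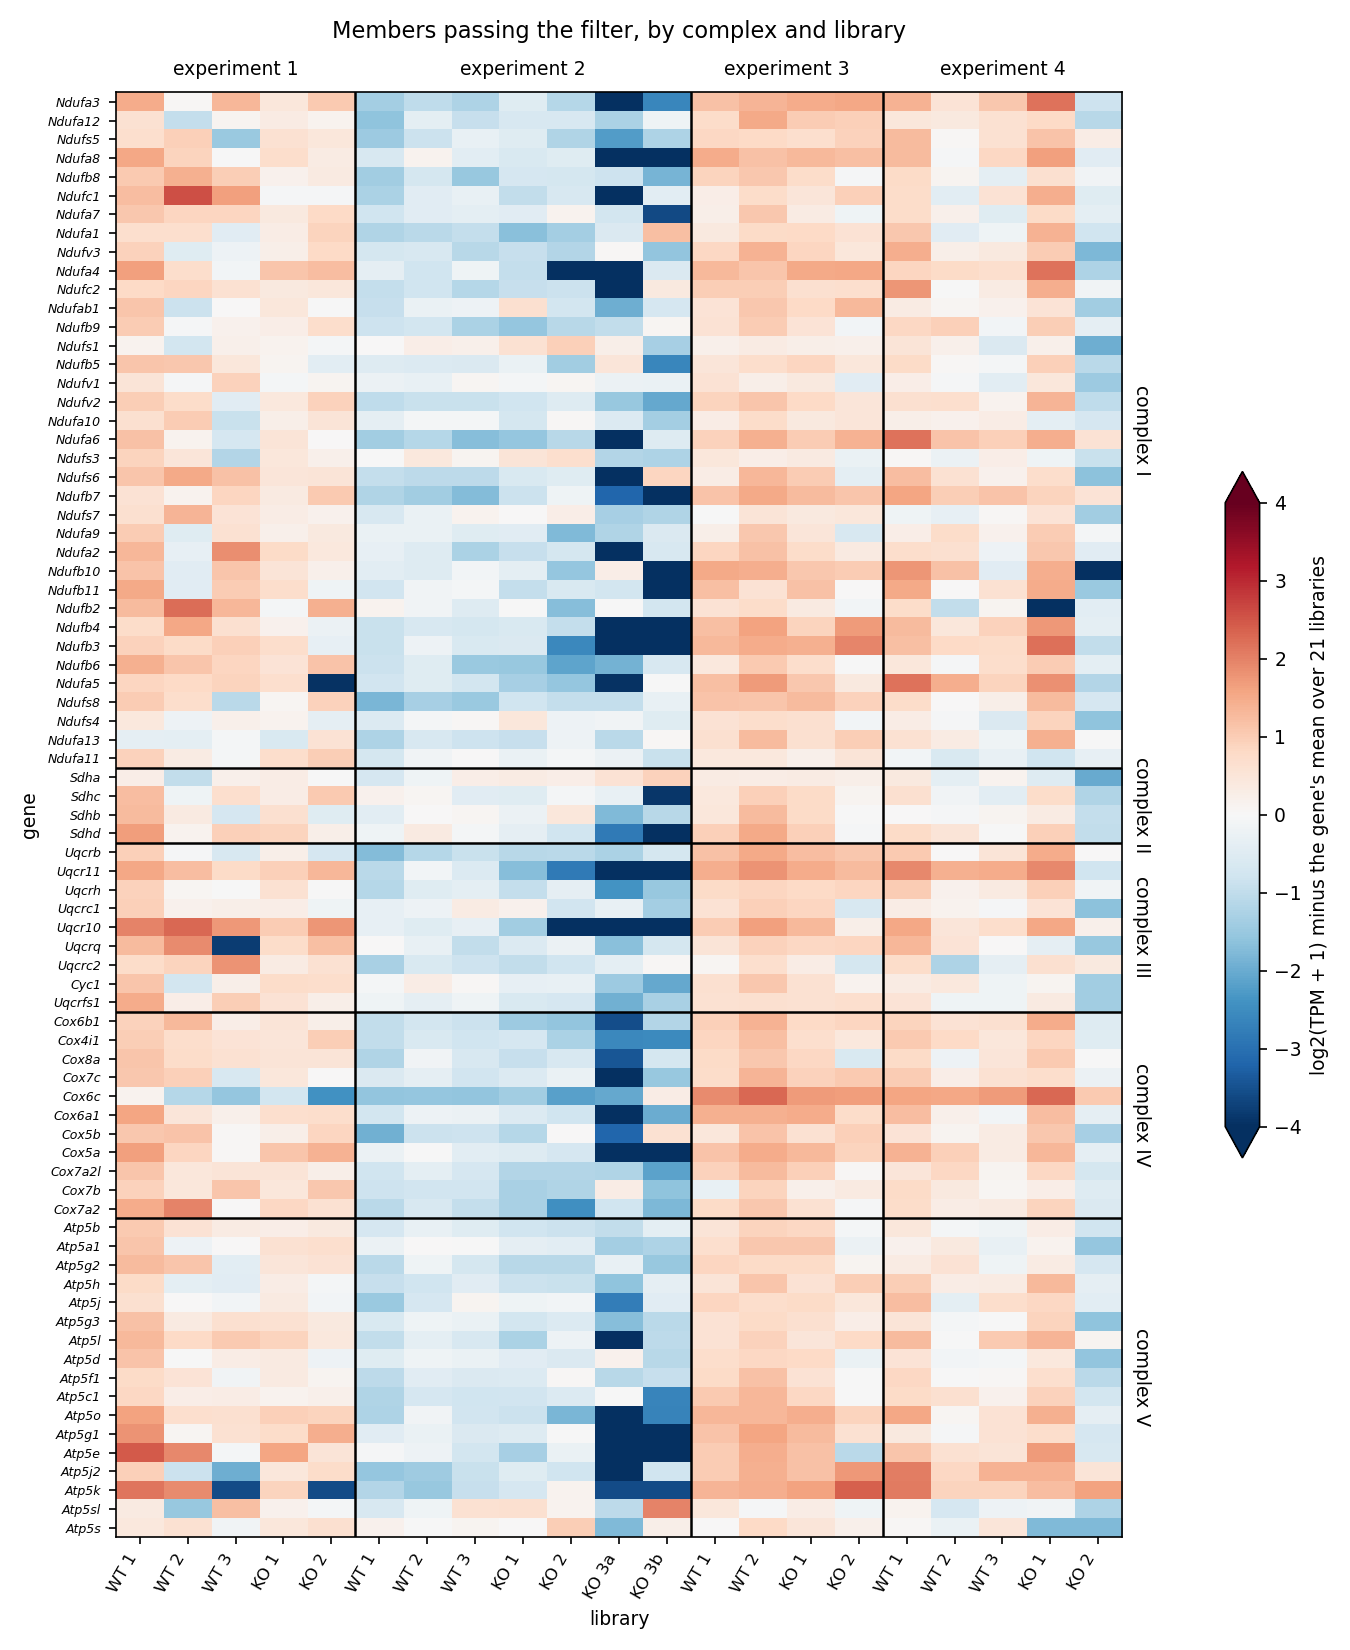
Level of 77 of the 78 members tested (rows, by complex and then by mean TPM) in the 21 libraries (columns, by experiment), as log2(TPM + 1) minus the gene's mean over libraries. Colours end at -4 and 4. The block of experiment 2 is blue for most rows, Sdha and Ndufs1 are exceptions, and Cox6c is blue in most libraries of experiments 1 and 2.

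The difference of experiment 2 was larger for members with short transcripts on the whole, with exceptions in both directions. Among long transcripts Atp5g1 (4715 nt) was at -2.21, and among short ones Ndufa11 (545 nt) was at -0.51, on the scale explained next. The principal transcripts of the members (GENCODE M21, GRCm38) had a median length of 891.5 nt, against 3026 nt for all protein-coding genes tested. Where coding transcripts of a gene were ranked equally as principal, the longest was taken. Which transcript the cells expressed is not known here, so lengths such as that of Atp5g1 may depend on this choice. Experiment 2 was compared with the mean of the other experiments. For the 27 members under 700 nt the median difference was -1.93 in log2(TPM + 1), and all 27 were below 0. For the 24 members of 700 to under 1200 nt it was -1.58, with all 24 below 0, and for the 27 members of 1200 nt or over it was -0.92, with 24 below 0. Other coding genes of the same lengths gave medians of -1.25 (236 genes), -0.79 (821 genes) and 0.21 (10611 genes), and the members lay below these in each bin. Of these other coding genes 80.9%, 81.9% and 36.9% were below 0. The grading of the other coding genes depended on the filter. With no filter on low values their medians were -0.12, -0.21 and 0.07, while those of the members were -1.86, -1.58 and -0.92. That setting lets in genes near 0 TPM, whose differences the pseudocount of 1 holds near 0. Leaving out 3a and 3b, the medians under 700 nt were -1.55 for members and -0.87 for other coding genes. The length bounds were chosen after the data were seen. Across the 78 members, Spearman's rho between length and this difference was 0.66, given as a description, since members share libraries and differ in level.

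Uqcr11 (445 nt) and Uqcr10 (434 nt) differed most in experiment 2, by -3.83 and -3.74, followed by Ndufa3 (515 nt) at -3.08. At the other end were Atp5sl (2387 nt) at 0.31, Sdha (2900 nt) at 0.29 and Ndufs1 (2661 nt), the largest core subunit of complex I, at 0.19. Sdha ran from 49.7 to 154 TPM in experiment 2 (median 96.6) and from 19.2 to 105 TPM elsewhere (median 92.8), so that the groups overlapped. What experiment 2 differed in was not tested beyond these values. Its libraries had 25.0% to 51.9% of their TPM in the 20 highest genes, against 19.7% to 71.1% in the others. Summed endothelial markers were 2668 to 8049 TPM in experiment 2 (median 5859) and 420 to 8344 TPM elsewhere (median 5873). Pericyte and smooth muscle markers were 4.51 to 65.3 TPM (median 24.5) in experiment 2 and 23.2 to 182 TPM (median 81.0) elsewhere. Of the other lists, median sums in experiment 2 and elsewhere were 69.2 and 111 TPM for leukocytes, 63.8 and 50.4 TPM for fibroblasts, 314 and 771 TPM for adipocytes, 1.63 and 41.9 TPM for erythroid cells, 2.34 and 4.5 TPM for skeletal muscle and 11.1 and 3.51 TPM for tumour epithelium, and the ranges overlapped for each list.

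**Figure D4:**
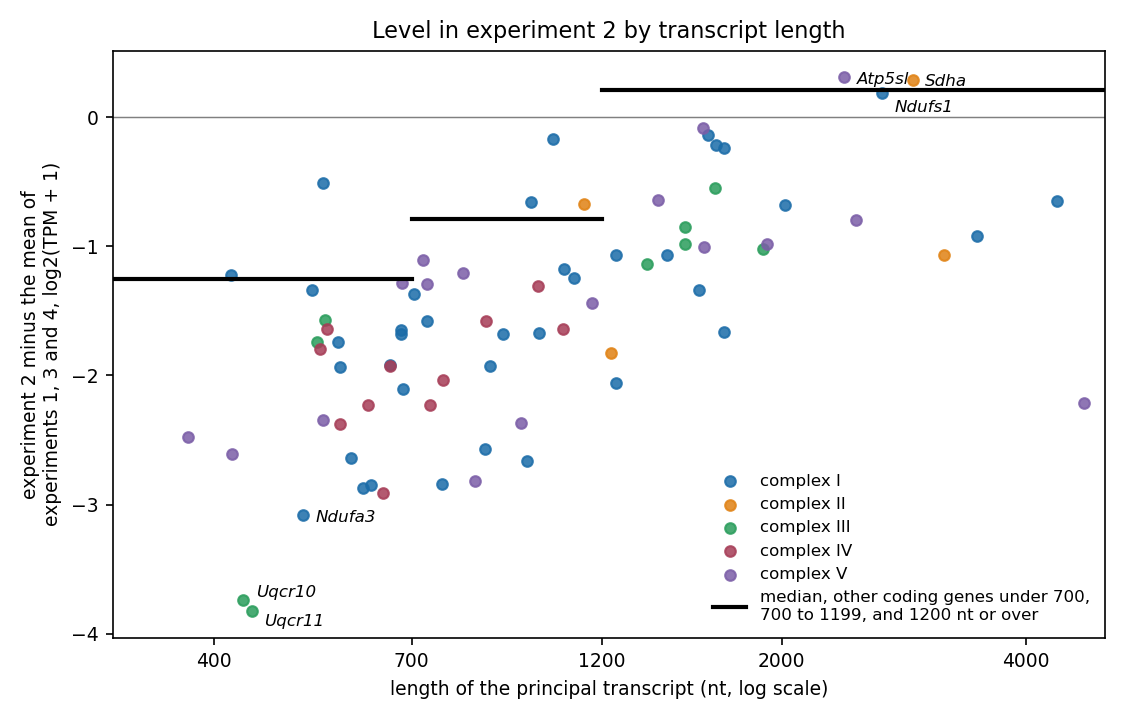
Mean level in experiment 2 minus the mean of experiments 1, 3 and 4, in log2(TPM + 1), against the length of the principal transcript on a log scale, for the 78 members tested. Black lines are medians of other coding genes under 700 nt (-1.25), of 700 to under 1200 nt (-0.79) and of 1200 nt or over (0.21), the last including genes longer than the axis. Points rise from left to right and lie mostly below the lines.

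Single members dropped to 0 in a few libraries. Of the 78 members tested, 25 were listed at 0 at least once, 39 values in all. KO replicate 3a of experiment 2 held 20 of these and KO replicate 3b held 12. They shared 7 members, which are 35% of those in 3a and 58.3% of those in 3b: Atp5e, Atp5k, Cox5a, Ndufb3, Ndufb4, Uqcr10 and Uqcr11. Members at 0 made up 25.6% of those tested in 3a, beside 16.5% of all genes tested, and 15.4% in 3b, beside 15.2%. Of the 27 members under 700 nt, 13 were at 0 in 3a (48.1%) and 6 in 3b (22.2%), beside 45.8% and 36.0% of other coding genes of that length. The other 7 zeros were Atp5k in WT replicate 3 and KO replicate 2 of experiment 1, Ndufa5 in the latter, Ndufa4 in KO replicate 2 of experiment 2, Atp5s in both KO libraries of experiment 4, and Ndufb10 in KO replicate 2 of experiment 4. WT replicate 2 of experiment 1, with 13.5% of all tested genes at 0, had 0 members at 0. As Cox5a, for one, had a median of 103 TPM over all libraries, a value of 0 is given here as listed and not as absence.

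Across the 21 libraries the members varied together. The median Pearson r over all 3003 pairs of members was 0.62, and it was 0.60 within a complex and 0.63 between complexes, beside 0.0125 for all pairs of genes tested. These correlations are across libraries that share experiment, depth and normalization, and they are given as a description. Nearest to the mean of the other members were Cox4i1 (r = 0.97), Cox6b1 (0.96) and Uqcrh (0.96). Farthest from it were Sdha (-0.22), Atp5sl (-0.08) and Ndufs1 (0.11).

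The balance of paralogous subunits did not differ detectably between genotypes. Atp5g1, Atp5g2 and Atp5g3 are known to encode the same mature subunit c behind different targeting sequences, and the longest run of bases shared by any pair of these transcripts was 21 nt. Atp5g1 ran from 24.6 to 131 TPM in WT (median 49.3) and from 1.02 to 103 TPM in KO (median 47.2). Atp5g3 ran from 69.7 to 242 TPM in WT (median 138) and from 32.4 to 198 TPM in KO (median 101). The log2 ratio of Atp5g1 to Atp5g3 was -1.32 ± 0.40 in WT (SD, n = 11) and -1.69 ± 1.43 in KO (SD, n = 10), a difference of -0.25 (SE 0.42) with p = 0.528 by an exact two-sided permutation test within experiments. The ratio of Atp5g2 to Atp5g3 was 0.18 ± 0.51 in WT and 0.26 ± 0.66 in KO, a difference of 0.11 (SE 0.28) with p = 0.688 by the same exact test. With adjustment over these 2 ratios p was 0.688 for both. Leaving out 3a and 3b turned both signs, to 0.26 and -0.035. Ratios of Cox4i2 to Cox4i1, Cox7a1 to Cox7a2 and Cox6a2 to Cox6a1 were not tested, because the isoform of the other tissue did not pass the filter. For reference, Cox7a2 ran from 19.3 to 166 TPM in WT and from 6.73 to 78.4 TPM in KO, and Cox6a1 from 50.2 to 255 TPM and from 0 to 238 TPM.

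The other genes of the pathway were read from the same fit, by lists of known function that were drawn up with earlier results of these data known. None of these lists held a gene called between genotypes. Of all genes tested 64% were below 0, with a median of -0.11, beside which the counts of each list stand. Of the 13 subunits encoded by the mitochondrial genome 4 were below 0, and their median difference between genotypes was 0.14, beside -0.40 for the nuclear members. By experiment that median was -1.02, 1.30, -0.06 and -0.24, and KO replicates 3a and 3b held 7.94% and 17.2% of their TPM in the mitochondrial genome, against 1.27% to 3.78% in the other libraries of experiment 2. The smallest p were those of mt-Nd3, at -0.60 (SE 0.48), and mt-Nd4l, at -1.64 (SE 1.78), which were -0.19 and -0.40 when KO 1 of experiment 4 was left out. Of 39 assembly factors, which build the complexes without being part of them, 26 were below 0 (66.7%) with a median of -0.16. Those with the smallest p, Acad9 of complex I assembly at 0.62 (SE 0.22) and Cox19 of complex IV assembly at 0.65 (SE 0.25), were above 0. Cycs, which encodes cytochrome c, and Hccs, its haem lyase, were at -0.21 (SE 0.28) and -0.40 (SE 0.25), and at -0.023 and -0.26 when KO 3a of experiment 2 was left out.

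Pyruvate dehydrogenase and the tricarboxylic acid cycle had 15 of 16 genes below 0 with a median of -0.22, led by Dld at -0.43 (SE 0.23) and Idh3a at -0.67 (SE 0.42). Dld was -0.21 when KO 2 of experiment 4 was left out, and Idh3a was -0.36 when KO 3a of experiment 2 was. Of 9 regulators of mitochondrial biogenesis tested 5 were below 0 (55.6%, against 64% of all genes), with a median of -0.0013. Tfb2m (-1.30, SE 0.50) and Tfb1m (-0.71, SE 0.38), mitochondrial transcription and rRNA methylation factors, had the smallest p. Mitochondrial ribosomal proteins had 61 of 77 below 0 (median -0.27), among them Mrps31 at -1.04 (SE 0.44) and Mrps23 at -0.94 (SE 0.40). Cytosolic ribosomal proteins had 81 of 83 below 0 (median -0.34), with Rps4x at -0.62 (SE 0.21) and Rpl18 at -0.55 (SE 0.20). By limma the adjusted p was between 0.820 and 0.937 for each gene named from these lists.

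Between experiments, the cytosolic ribosomal proteins set experiment 2 apart more than the members did. Experiment 2 was lowest for 82 of 83 of these proteins and 79 were called, which is 95.2%. Among members it was lowest for 68 of 78 and 71.8% were called, and among all genes these shares were 19.3% and 29.1%. Of the mitochondrial ribosomal proteins 56 of 77 were lowest in experiment 2 and 18 were called (23.4%), and of the assembly factors 16 of 39 and 5 (12.8%). For the tricarboxylic acid cycle list the counts were 9 of 16 and 3 (18.8%), for the mitochondrial genome 9 of 13 and 6 (46.2%), and for the regulators 2 of 9 and 2 (22.2%). The shares called in the mitochondrial ribosomal, assembly, tricarboxylic acid cycle and regulator lists were thus under that of all genes. Relative to the median of all genes in the same library, the members' median lay between -0.28 and 0.76 in log2 in experiment 2 and between 1.52 and 2.56 in the other experiments, with no overlap. For the cytosolic ribosomal proteins these ranges were 2.57 to 3.39 and 4.28 to 5.66. The medians over libraries of experiment 2 and of the others were 0.35 and 1.98 for the members and 2.93 and 5.06 for these proteins. For the assembly factors the ranges were -1.11 to -0.733 and -0.726 to -0.24, close but without overlap. For the mitochondrial genome they overlapped, at 3.92 to 8.89 and 4.82 to 10.4.

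**Figure D5:**
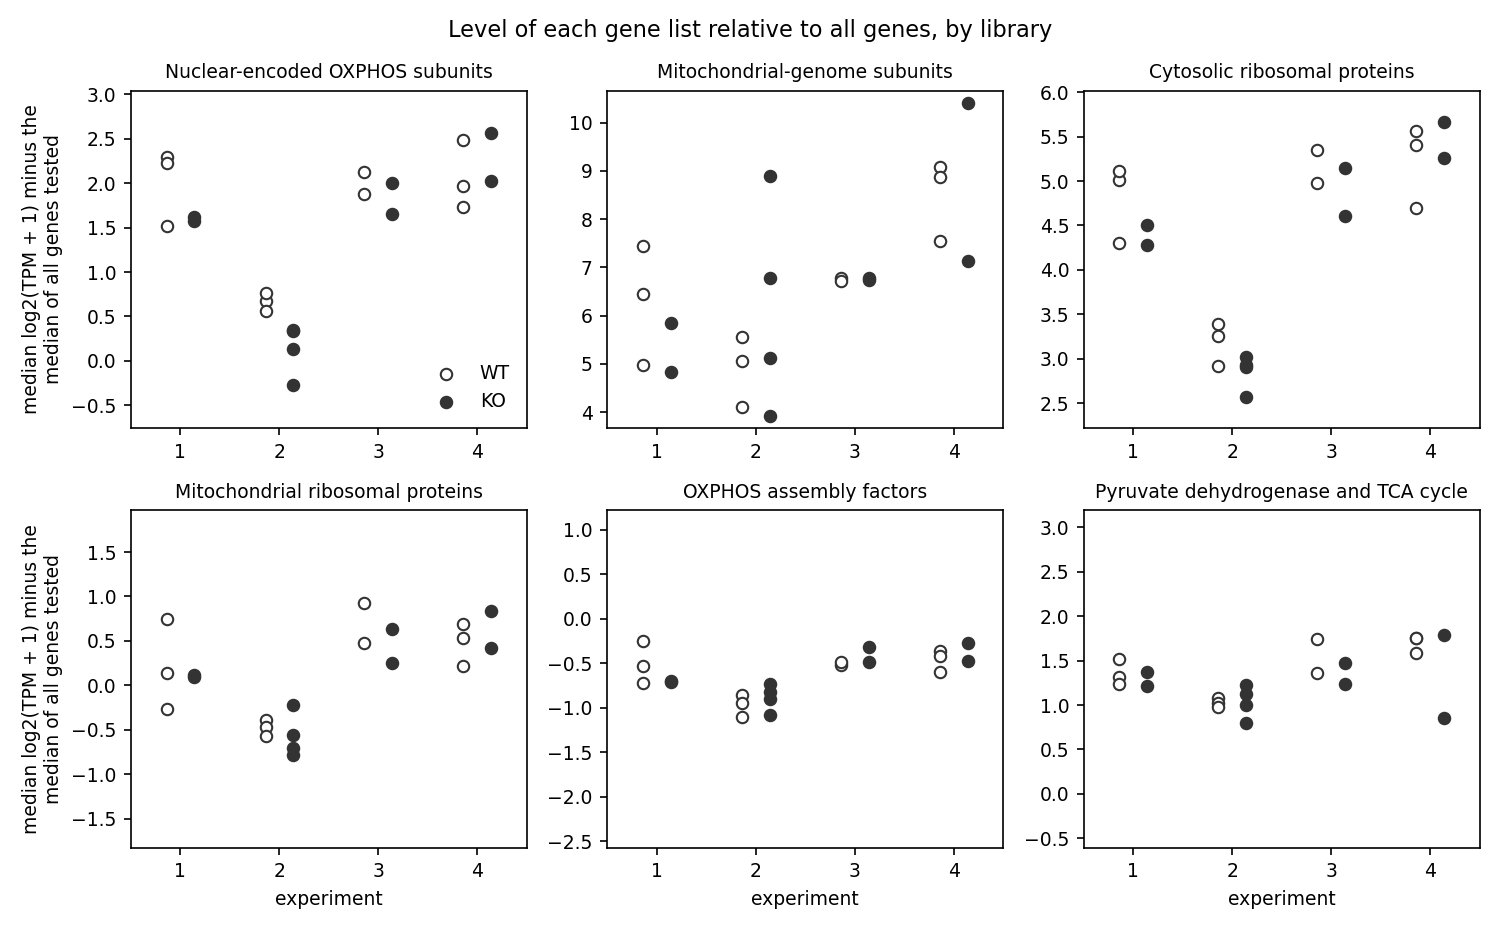
Median log2(TPM + 1) of 6 gene lists minus the median of all genes tested in the same library, by experiment, with open points for the 11 WT and filled points for the 10 KO libraries. The vertical axes span the same range except that of the mitochondrial-genome subunits, which is wider. The members, the cytosolic ribosomal proteins and, by a narrow margin, the assembly factors are lower in all 7 libraries of experiment 2 than in every other library.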

How the data were processed

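Total RNA of CD31-positive sorted tumour cells was sequenced in 21 libraries (11 WT, 10 KO) from a stranded, ribosomal RNA-depleted kit with 30 ng input and paired reads of 150 bases, per the labels' protocols. The authors deposited 1 table of TPM, which is no count, with decimal commas. The submitters' processing notes name the build GRCm38. Aligner and quantifier: not given in the sources used here. Columns were assigned by header, and 0 per-sample columns were unused. From TPM, log2(TPM + 1) was computed here, keeping genes that reached 1 TPM in 10 or more of the libraries, and fitted by limma (version 3.58.1, in R 4.3.3 with statmod 1.5.0) under a trended, robust prior. The pseudocount of 1 understates changes of low genes. The fit was tried on simulated normal values without differences between experiments, in which genes of lower spread were given a large change. That trial does not cover values listed at 0, shifts between experiments or small differences. Single values were tested by exact permutation within experiments (21000 arrangements). TPM holds no depth, so no counting intervals are given. GENCODE M21 matched 45143 identifiers, and promoter windows came from RefSeq.

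Members and gene lists were chosen with earlier results of these data known. Members were named by level (the 3 highest and the lowest of each complex), failure of the filter, smallest p (5 per direction between genotypes, 5 between experiments) and paralogy, with 2 genes of smallest p from each other list. The values of 1 member that this rule names are not reported here, and it is not drawn by name, though it enters all counts. Others named, such as those at 0, at the ends of a ranking or without overlap, were chosen after their values were seen. Counts below 0 and lowest in experiment 2, the length bounds, and leaving out or moving KO replicates 3a and 3b were also added after the data were seen. Alternatives covered pseudocount, filter, scaling, prior, batch term, replicate block, and leaving out libraries or experiments.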

Additional observations from a re-analysis of the deposited data

Results flagged for a closer look

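Among the 10 KO samples, and among the 4 KO samples of experiment 2, a lone highest or lowest sample was looked for by Dixon's criterion in 36 results, which made 72 groups. In 9 of these groups 1 sample lay far from the rest. The criterion's nominal rate of about 1 in 20 holds for independent groups. These groups share libraries, and those of experiment 2 lie within those of all KO. The count of 9 can therefore not be compared with that rate. Each was a sample below the rest.

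KO replicate 3a of experiment 2 accounted for 5 of the 9. Atp5j2, the f subunit of the ATP synthase, was listed at 0 TPM there, against a next lowest KO value of 16.3 TPM and a KO median of 41.6 TPM, and the same value of 0 TPM lay apart within KO of experiment 2, whose median was 16.4 TPM. Cox6a1 was listed at 0 TPM, against a next lowest of 20.7 TPM and a median of 101 TPM over KO. Cox8a stood at 10.8 TPM, against a next lowest of 66.1 TPM, both over KO (median 104 TPM) and within KO of experiment 2 (median 71.5 TPM).

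KO replicate 3b of experiment 2 accounted for 3. Sdhc, a membrane anchor of complex II, stood at 1.42 TPM, against next lowest values of 14.5 TPM over KO and 24.8 TPM within experiment 2. Cox7a2l stood at 15.7 TPM, against a next lowest of 30.9 TPM within KO of experiment 2. The remaining sample was KO replicate 2 of experiment 4, in which Sdha stood at 19.2 TPM, against a next lowest of 55.5 TPM and a KO median of 97.3 TPM.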

How the results depend on the processing

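No member was called between genotypes under any of 39 alternatives, and 70 of 78 fitted below 0 in the main analysis. The count of 14 members with an unadjusted p under 0.05, all lower in KO, was 6 with at least 1 TPM required in every library (52 members tested), 8 with a common median, 9 with a plain prior, 6 without an experiment term, 2 without the 3 libraries lowest in Pecam1, 9, 3 and 9 without experiments 1, 2 and 3, 6 leaving out 3a and 3b, and 3 without these and the 3 libraries together. Requiring 1 TPM everywhere gave 45 of 52 below 0 and 44 lowest in experiment 2. All genes below 0 went from 64% to 50.8% with a common median and 49.3% with quantile scaling, where 65 and 67 members were below 0. The median of all genes moved from -0.11 to -0.0063 with a common median, and members are therefore also given relative to it. Members differing between experiments numbered 1 without experiment 2.

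Without single samples, the count of 14 ran from 6 to 21, members below 0 from 60 to 74, the relative median from -0.35 to -0.21, members differing between experiments from 46 to 59, those lowest in experiment 2 from 67 to 71, and members with a differing genotype effect from 0 to 1 (1 without KO replicate 1 of experiment 2). Shb ran from -1.08 to -0.79, Uqcrc2 from -0.085 to 0.16, Atp5j2 from -0.12 to 0.41, and the ratios of Atp5g1 and Atp5g2 to Atp5g3 from -0.40 to -0.016 and from -0.038 to 0.24.

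Deviations of same-numbered samples from their group means correlated at r from -0.20 to 0.36 (10 pairs). Of these, 2 were above 0.1, both in experiment 4 (0.32 and 0.36). In a group of 2 libraries the deviations mirror each other, so the check could not settle whether samples pair. With a replicate block, 16 members were lower at an unadjusted p under 0.05, 71 were below 0, and Shb was at -0.91 (exact permutation p = 0.0547). Shb was at -0.82 (p = 0.0748) without the Pecam1-low libraries, -0.57 (0.227) without experiment 2, -0.62 (0.165) without experiment 4, -0.71 (0.0688) without 3a and 3b, and -0.62 (0.180) without both sets, all by exact permutation.

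Signs turned for small values. Uqcrc2 became -0.11 without an experiment term, -0.20 without the Pecam1-low libraries, -0.13 and -0.19 without experiments 2 and 4, -0.027 with 3b placed in experiment 4, -0.085 without 3a and 3b, and -0.33 without both sets. Atp5j2 became -0.18 and -0.00085 with pseudocounts of 0.1 and 0.5, -0.19 without an experiment term, -0.038 with the replicate block, -0.29 without experiment 1 and -0.20 with 3b in experiment 4. Cycs became 0.0071 and 0.15 without 3a and 3b and without both sets. Atp5g1 to Atp5g3 became 0.19 without experiment 2, 0.26 without 3a and 3b and 0.17 without both sets. Atp5g2 to Atp5g3 became -0.0050 without the Pecam1-low libraries, -0.035 without 3a and 3b and -0.15 without both sets. Coding genes of 1200 nt or over that are no members became -0.023 in experiment 2 without experiment 4. The cause was not tested in any of these, and TPM gives no depth from which the precision of low values could be known.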
